A study of Mus musculus with 10 samples.

Results

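Transcripts of 10 aldo-keto reductases were followed in mouse liver 12 hours after partial hepatectomy, an operation that takes out whole lobes and is followed by regrowth of the liver. The members were the rows of the deposited count table with the symbols Akr1a1, Akr1b3, Akr1b7, Akr1b8, Akr1c6, Akr1c12, Akr1c13, Akr1c14, Akr1c19 and Akr7a5, 10 of 23056 gene symbols. All 10 were found and all 10 passed the filter on low counts. They were chosen by symbol with the measured genotype differences of these same libraries in view, among them the low Akr1b7 of the knockout livers. Their genotype differences are therefore given as a description, with their spread. No p-value is printed for a member. Calls of members at an adjusted p under 0.05 are also a description, given beside the calls over all genes.

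The libraries came from livers of wild-type (WT, 6 libraries) and Ifrd1 knockout (KO, 4 libraries) mice, and every animal had the left lateral and median lobes resected under isoflurane. The labels used here give no strain, age or sex, and they do not say in which cells Ifrd1 was removed or by what allele. The labels do not say that each library is a separate animal, so p-values refer to library spread, which may be partly technical. Livers without surgery were not analysed here, and every value is from an operated animal.

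Aldo-keto reductases reduce aldehydes and ketones to alcohols with NADPH as the usual electron donor. In liver they handle lipid aldehydes, sugars, steroids, bile acid precursors and foreign carbonyl compounds. Several of them are known targets of NRF2, the transcription factor of the antioxidant response, and Akr1b7 is a known target of the farnesoid X receptor (FXR), the nuclear bile acid receptor.

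Library totals lay between 12307446 and 17098012 counts. Levels are given as CPM, counts scaled to library size. Ifrd1, the targeted gene, was at 58.7 ± 15.6 CPM in WT (SD, n = 6) and 19.5 ± 4.38 CPM in KO (SD, n = 4), with no overlap and with reads left in every KO library. The 8 hepatocyte markers were present in all libraries, with summed levels of 39770 to 85462 CPM in WT and 51537 to 60317 CPM in KO. Of these 8, 1 passed edgeR's test, against 1.33% of all genes tested. Tat, tyrosine aminotransferase, was lower in KO (3065 ± 1067 CPM in WT, 1035 ± 322 CPM in KO, edgeR's adjusted p = 0.0460). The WT and KO libraries overlapped for Tat, through WT replicate 4 alone. In a principal component analysis of log2 CPM, WT replicate 4 had a first-component score of 40.1, near the KO scores (42.2 to 46.8), while the remaining WT scores ran from -79.3 to -11.8. The second component set WT replicates 5 and 6 (-44.0 and -47.1) apart from the rest (-0.41 or above). Some results are given with and without WT replicate 4. Adjusted p of single genes outside the family are from all 10 libraries only and change when that library is left out.

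The family members lie in few places of the GRCm38 genome. Akr1b3 (chromosome 6, 34302434 to 34317478, minus strand), Akr1b8 (34354119 to 34368463, plus strand) and Akr1b7 (34412334 to 34423142, plus strand) are neighbours, with the non-member Akr1b10 (34384218 to 34396950, plus strand) between the last pair. Akr1c14 (chromosome 13, 4049011 to 4090688), Akr1c13 (4191150 to 4205596), Akr1c19 (4228700 to 4252843), Akr1c12 (4268176 to 4279433, the only one of these members on the minus strand) and Akr1c6 (4434306 to 4457877) form a second group. Akr1a1 (chromosome 4, 116636510 to 116651680, minus strand) and Akr7a5 (chromosome 4, 139310744 to 139318426, plus strand) stand alone.

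The upstream sequences of the 3 plus-strand Akr1b neighbours, 84.8% to 89.2% identical in their coding sequence, are shown. Akr1b7 differed widely from Akr1b8 and Akr1b10 in mean WT level and in genotype difference. Each line gives the 220 bases that lie 250 to 31 bases before the RefSeq start site (GRCm38.p6, plus strand: Akr1b8 chr6:34353896-34354115, Akr1b10 chr6:34383997-34384216, Akr1b7 chr6:34412112-34412331). None of these bases lies in an annotated exon.
Akr1b8: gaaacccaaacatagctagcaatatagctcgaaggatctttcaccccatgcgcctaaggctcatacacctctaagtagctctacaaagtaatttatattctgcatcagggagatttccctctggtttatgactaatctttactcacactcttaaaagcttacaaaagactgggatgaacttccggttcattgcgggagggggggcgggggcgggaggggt
Akr1b10: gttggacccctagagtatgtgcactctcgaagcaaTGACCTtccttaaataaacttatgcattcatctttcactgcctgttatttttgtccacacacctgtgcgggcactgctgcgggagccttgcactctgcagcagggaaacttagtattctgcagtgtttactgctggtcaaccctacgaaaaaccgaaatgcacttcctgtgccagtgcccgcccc
Akr1b7: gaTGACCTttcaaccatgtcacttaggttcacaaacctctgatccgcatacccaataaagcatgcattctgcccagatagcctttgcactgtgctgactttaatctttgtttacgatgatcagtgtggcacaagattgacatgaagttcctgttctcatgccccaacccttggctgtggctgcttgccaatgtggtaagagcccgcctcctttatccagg
The capitals mark matches to AGGTCA, the core hexamer that nuclear receptors such as FXR bind, here on the opposite strand and so read as TGACCT. The match begins at position -248 from the start site of Akr1b7 and -215 from that of Akr1b10, and Akr1b8 had none in this window.

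Promoter windows of 250 bases before to 50 bases after the RefSeq start were found for 9 of the 10 members. AGGTCA, on either strand, was present in 2 of these 9 (Akr1b7 and Akr7a5), against 16.3% of 32851 promoter windows of the same length. TGACNNNGC, the core of the antioxidant response element that NRF2 binds, was present in 1 of 9 (Akr1c19), against 12.4% of all windows. Searches used both strands, and the motifs may overlap each other. These matches describe letters in the windows and are not evidence of binding.

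Levels of different genes were compared per length, as CPM per kilobase of the longest protein-coding transcript. Akr1a1, the aldehyde reductase that also acts in glucuronate metabolism, had the highest WT mean, 188 ± 10.9 CPM per kilobase (SD, n = 6). Akr1c6, a 17β-hydroxysteroid dehydrogenase of liver, followed at 132 ± 57.0. Akr7a5, a reductase of aflatoxin aldehydes, was at 63.9 ± 8.37. Akr1b7 came next with a mean of 51.7 and an SD of 55.4, larger than the mean itself. Akr1c12 (24.0 ± 5.08), Akr1c13 (17.5 ± 7.55), Akr1c14 (5.57 ± 2.91), Akr1b8 (2.60 ± 1.16), Akr1b3 (2.04 ± 0.644) and Akr1c19 (1.23 ± 0.566) had the lower levels per kilobase in WT. The ranges of all 9 pairs of neighbours in this order overlapped between libraries. Compared within the same library, Akr1c13 was above Akr1c14 and Akr1b3 above Akr1c19 in all 6 WT libraries. The remaining pairs did not keep their order in every WT library.

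In KO the order began with the same 3 genes, Akr1a1 (171 ± 21.0 CPM per kilobase, SD, n = 4), Akr1c6 (152 ± 11.6) and Akr7a5 (56.5 ± 8.59). Akr1c14 was in the fifth place at 15.0 ± 1.30, beside Akr1c12 (21.4 ± 4.36) and Akr1c13 (14.7 ± 2.88). Akr1c19 was at 2.07 ± 0.754 and Akr1b8 at 1.67 ± 0.645. Akr1b3 was at 1.42 ± 0.506 and Akr1b7 was last at 0.399 ± 0.172. Of the 9 pairs of neighbours in KO, 5 overlapped. The steps from Akr1c6 to Akr7a5, from Akr7a5 to Akr1c12, from Akr1c13 to Akr1c19 and from Akr1b3 to Akr1b7 did not. Among the overlapping pairs, Akr1a1 was above Akr1c6 and Akr1c12 above Akr1c14 within each KO library, by this length.

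**Figure D1:**
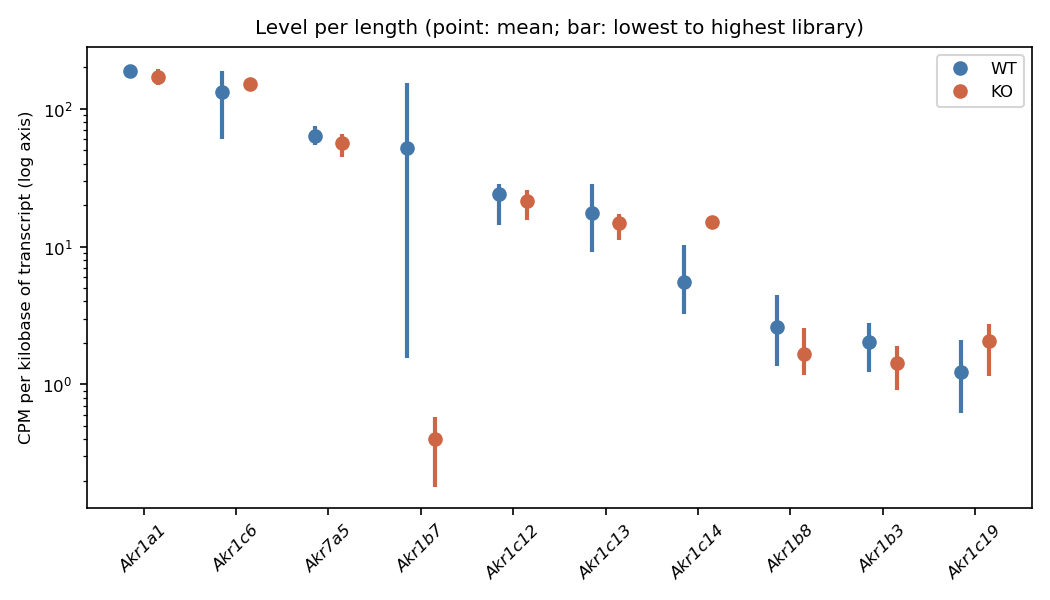
Level of each member in CPM per kilobase of its longest protein-coding transcript (log axis), with members ordered by the WT mean. Points are means of 6 WT (blue) and 4 KO (orange) libraries and bars run from the lowest to the highest library. Akr1b7 has the longest WT bar and the lowest KO level, 0.399, and Akr1c14 is the gene whose KO level lies wholly above its WT bar.

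Akr1a1 and Akr1c6 together held 56.0% to 75.6% of the summed CPM per kilobase of the 10 members in WT libraries and 73.7% to 74.4% in KO libraries. The sum itself was 488 ± 105 CPM per kilobase in WT (SD, n = 6, range 385 to 640) and 436 ± 44.6 in KO (SD, n = 4, range 398 to 489). These ranges overlapped. Akr1b7 made up 0.400% to 24.1% of the sum in WT and 0.0450% to 0.119% in KO. Akr1c14 made up 0.627% to 2.07% in WT and 3.12% to 4.08% in KO.

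Akr1b7, an aldose reductase-like enzyme that reduces lipid aldehydes, showed the widest range of the family. In WT it was lowest in replicate 4 at 1.97 CPM, had a median of 52.9 CPM and was highest in replicate 2 at 197 CPM. The remaining WT libraries had 72.6 CPM (replicate 1), 15.1 CPM (replicate 3), 77.3 CPM (replicate 5) and 33.1 CPM (replicate 6). In KO replicates 1 to 4 it was at 0.607, 0.462, 0.231 and 0.746 CPM. The groups did not overlap, although WT replicate 4 was nearer to the KO libraries than to any other WT library. Behind these values stood 29 to 2611 counts per WT library and 3 to 12 counts per KO library, 5261 and 32 counts in all.

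The log2 fold change of Akr1b7 was -6.96 (SE 1.24), a 124-fold lower fitted level in KO. Without WT replicate 4 it was -7.21 and without WT replicate 2, the library with the most Akr1b7, it was -6.23. Fewer cells that express a gene and less of its RNA per cell cannot be told apart in bulk tissue.

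Markers of other liver cells were uneven across the same WT libraries. WT replicate 2 had the highest summed level of the 7 Kupffer cell and macrophage markers (252 CPM, against 41.5 CPM for WT replicate 4 and a KO range of 32.3 to 64.9 CPM), of the 6 neutrophil markers (158 CPM, with 6.87 to 33.4 CPM in the other WT libraries and 3.77 to 11.9 CPM in KO) and of the 6 T and B cell markers (35.8 CPM, at most 2.11 CPM elsewhere). The 6 cholangiocyte markers summed to 32.0 to 283 CPM in WT, highest in replicate 1, and to 42.2 to 65.3 CPM in KO. None of the genes on these 4 lists was at 0 in all libraries. None of the 15 tested markers among them passed edgeR's test, and their part in the Akr1b7 values was not tested. The hepatocyte markers were also highest in WT replicate 2, but other lists peaked elsewhere. Endothelial (177 CPM), stellate cell and fibroblast (244 CPM) and mesothelial markers (22.3 CPM) were highest in WT replicate 5. Adipocyte markers were highest in WT replicate 3 (490 CPM) and red blood cell markers in KO replicate 2 (403 CPM). Of 7 listed markers of adrenal, stomach and intestine, other organs that express Akr1b7 or related genes, 5 were found. They summed to 38.3 to 77.6 CPM in WT and 86.7 to 180 CPM in KO without overlap. Of the 2 tested, Fabp2, the intestinal fatty acid binding protein, was higher in KO (52.5 ± 16.2 CPM in WT, 122 ± 41.2 CPM in KO, edgeR's adjusted p = 0.0468). Fabp2 alone made up most of the sum in both groups, so the sum tells little about adrenal or stomach. The part of these markers was not tested either.

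The other Akr1b members did not share the size of this difference. Akr1b8, the mouse relative of human AKR1B10, ran from 1.85 to 6.05 CPM in WT with a median of 3.19 CPM, again highest in replicate 2. In KO replicates 1 to 4 it was at 1.60, 2.39, 3.46 and 1.62 CPM (log2 fold change -0.64, SE 0.38), and the groups overlapped. Akr1b3, the aldose reductase that turns glucose into sorbitol, ran from 1.72 to 3.86 CPM in WT (median 2.85) and stood at 1.27, 1.46, 2.54 and 2.61 CPM in KO (log2 fold change -0.52, SE 0.33), also with overlap. Both rested on fewer than 100 counts per library, 26 to 80 for Akr1b8 and 19 to 51 for Akr1b3.

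Akr1c14, a 3α-hydroxysteroid dehydrogenase, was the member that stood higher in KO without overlap. In WT it ran from 10.3 CPM in replicate 3 to 32.9 CPM in replicate 6, with a median of 13.7 CPM. The KO libraries were close together, at 45.3, 51.7, 43.3 and 51.0 CPM in replicates 1 to 4. The 2 highest WT libraries were replicate 6 and replicate 4 (25.4 CPM), and the other 4 lay between 10.3 and 14.6 CPM. The log2 fold change was 1.43 (SE 0.31), a 2.70-fold higher fitted level, and it was 1.57 without WT replicate 4 and 1.70 without WT replicate 6.

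Akr1c19, another gene of the Akr1c group, ran from 3.59 to 12.3 CPM in WT (median 6.80) and was at 10.3, 15.2, 6.69 and 16.1 CPM in KO replicates 1 to 4. KO replicates 1, 2 and 4 lay above 5 of the 6 WT libraries, but WT replicate 6 and KO replicate 3 made the groups overlap (log2 fold change 0.76, SE 0.35). Akr1c6 varied 3.14-fold within WT, from 84.1 CPM in replicate 1 and 103 CPM in replicate 3 to 264 CPM in replicate 6, with a median of 198 CPM. Its KO libraries lay inside that range, at 219, 206, 193 and 231 CPM (log2 fold change 0.21, SE 0.30).

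Akr1c12 and Akr1c13, close copies of each other, had overlapping levels in the genotypes. Akr1c12 had a WT median of 31.5 CPM (18.1 in replicate 4 to 36.1 in replicate 6) and KO levels of 32.4, 26.9, 19.5 and 29.2 CPM (log2 fold change -0.16, SE 0.20). Akr1c13 had a WT median of 20.1 CPM (11.4 in replicate 4 to 36.0 in replicate 6) and KO levels of 21.2, 17.1, 14.1 and 21.9 CPM (log2 fold change -0.25, SE 0.30). Both had their lowest WT level in replicate 4, and for both the groups overlapped.

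Akr1a1 and Akr7a5 had the smallest relative spread in WT. Akr1a1 ran from 244 to 281 CPM in WT (median 272) and was at 257, 212, 225 and 277 CPM in KO (log2 fold change -0.14, SE 0.14). Akr7a5 ran from 70.9 to 97.3 CPM in WT (median 79.5) and was at 74.5, 57.9, 74.0 and 84.7 CPM in KO (log2 fold change -0.18, SE 0.15). The groups overlapped for both genes.

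**Figure D2:**
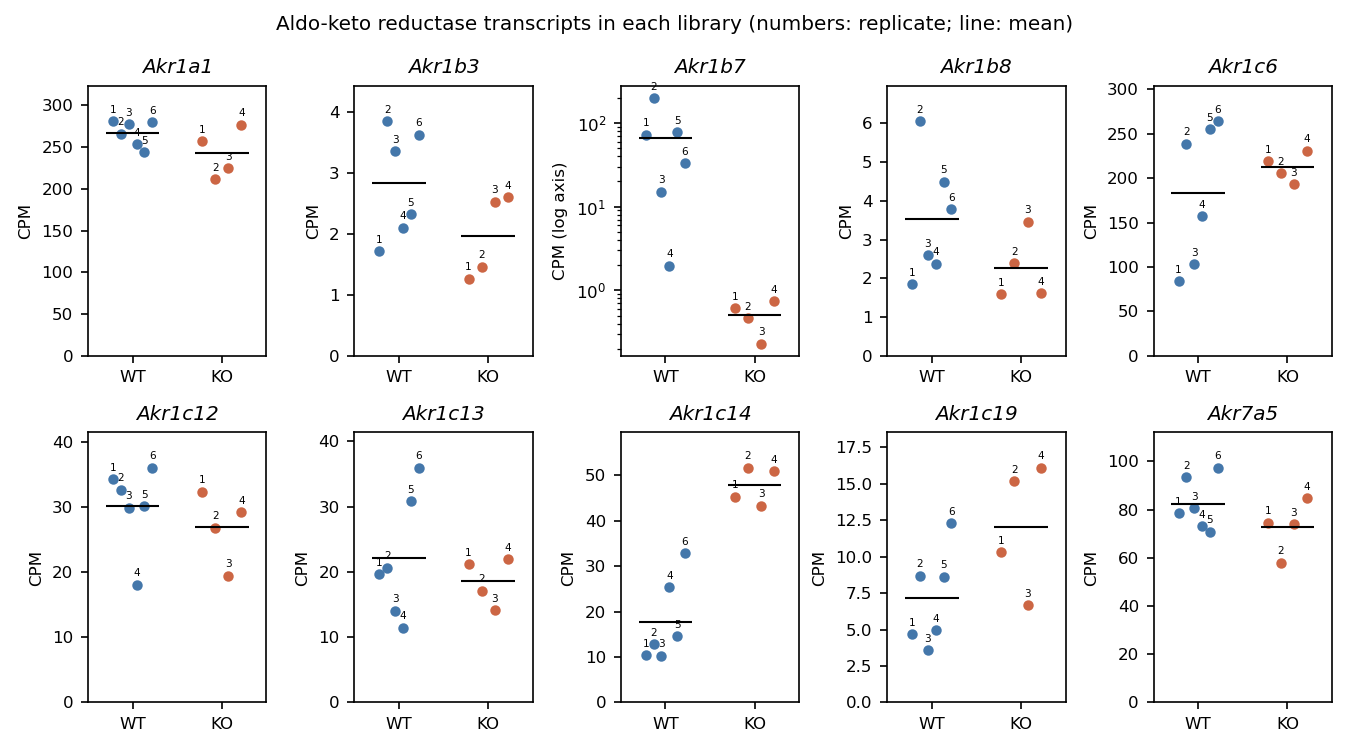
CPM of each of the 10 members in 6 WT (blue) and 4 KO (orange) libraries; digits are replicate numbers, lines are group means, and Akr1b7 has a log axis. WT and KO points separate for Akr1b7 (WT replicate 4 lowest in its group at 1.97) and Akr1c14, and overlap for the other 8 members.

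Of the 10 members, 2 passed edgeR's quasi-likelihood test at an adjusted p under 0.05, Akr1c14 higher and Akr1b7 lower in KO. Over all 13688 genes tested 1.33% passed, 0.563% higher and 0.767% lower. The groups did not overlap for 2 of 10 members, against 6.90% of all genes tested. Leaving out WT replicate 4 left the same 2 members without overlap, while the share of all genes rose to 22.2%. Since the members were taken up with this comparison in view, nothing is read from these shares. The median log2 fold change of the 10 members was -0.17 (3 above and 7 below 0), and that of all genes tested was -0.02. The calls of Akr1b7 and Akr1c14, like those over all genes, depended on single libraries. Of the 10 fits that each left out 1 library, Akr1b7 passed in 2 (without WT replicate 2 or 4). Akr1c14 also passed in 2 (without WT replicate 4 or 6). Over all genes these fits called 55 without WT replicate 2, 2893 without WT replicate 4 and 20 without WT replicate 6. Every other fit called at most 10. The log2 fold changes stayed between -7.21 and -6.23 for Akr1b7 and between 1.32 and 1.70 for Akr1c14.

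**Figure D3:**
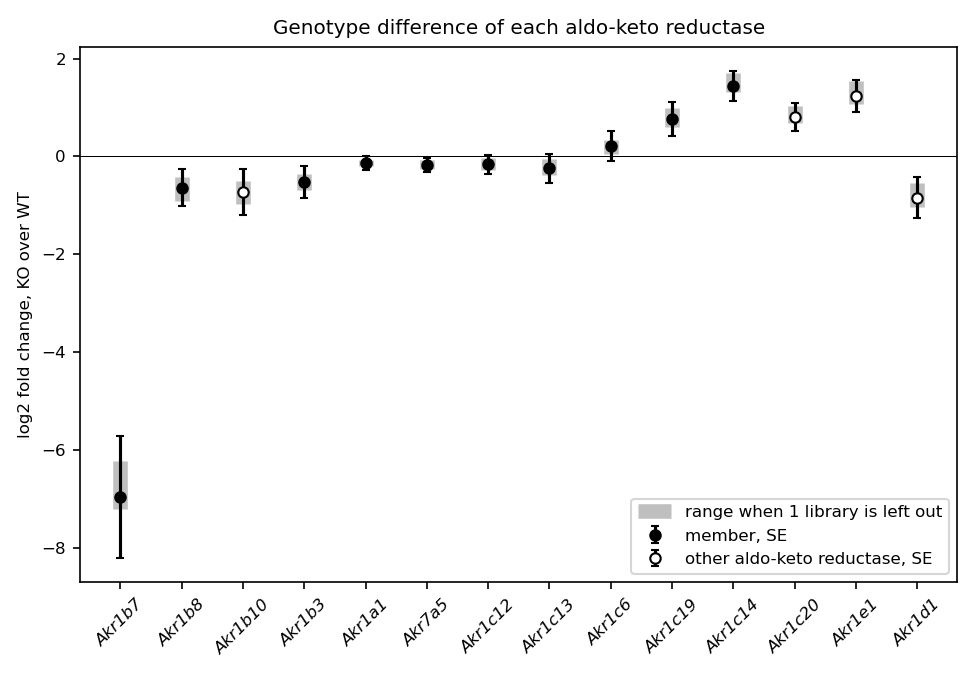
Log2 fold change of KO over WT for the 10 members (filled points) and 4 other aldo-keto reductases (open points), with the SE as a line and, in grey, the range when each library is left out in turn. Akr1b7 lies near -7 and the other members lie between -0.64 and 1.43.

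WT libraries differed from each other more than KO libraries did for most members. The coefficient of variation was larger in WT than in KO for 7 of 10 members, the exceptions being Akr1a1, Akr1b3 and Akr7a5. For Akr1b7 it was 107% in WT and 43.1% in KO, for Akr1c14 52.3% and 8.64%, and for Akr1c6 43.3% and 7.66%. WT replicate 4 lay inside the KO range for 4 members, and for 7 members it was closer to the KO mean than to that of its own group without it. The matching shares of all genes were not counted. On the first principal component of all tested genes, WT scores also spread widely (-79.3 to 40.1), with replicate 4 nearest to KO (42.2 to 46.8). Nothing particular to the family is therefore read from these counts.

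The rest of the family was examined beside them. Of 11 other aldo-keto reductase symbols 9 were in the table, of which 6 had enough counts to be tested. None of the 6 passed edgeR's test at an adjusted p under 0.05. At an unadjusted p under 0.05 there were 2 (26.0% of all genes), DESeq2 called 1 (11.9% of all genes), limma-voom 1 (2.32%) and limma-voom with sample weights 2 (19.2%). Without WT replicate 4, edgeR called 3 of 6 (21.4% of all genes): Akr1e1, Akr1c20 and Akr1d1.

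Akr1e1, a reductase of 1,5-anhydrofructose, lay next to the Akr1c genes on chromosome 13 (4590750 to 4609174) and showed the same kind of separation as Akr1c14. It ran from 5.90 CPM in replicate 2 to 27.6 CPM in replicate 4 in WT, with a median of 13.9 CPM, and was at 32.0, 30.6, 34.1 and 37.3 CPM in KO. The groups did not overlap (log2 fold change 1.24 with an SE of 0.34; edgeR gave an adjusted p of 0.0685). Without WT replicate 4 the log2 fold change was 1.54 (edgeR's adjusted p = 0.00270). Akr1c20, 92.3% identical in coding sequence to Akr1c6, ran from 9.86 to 32.1 CPM in WT and from 25.9 to 41.0 CPM in KO. It overlapped only through WT replicate 4, with log2 fold changes of 0.81 (edgeR's adjusted p = 0.117) and 1.02 without that library (edgeR's adjusted p = 0.0126).

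Akr1d1, the 5β-reductase of bile acid synthesis, lay the other way. It ran from 9.39 CPM in replicate 4 to 74.8 CPM in replicate 6 in WT and from 19.3 to 23.7 CPM in KO, so that WT replicate 4 was below every KO library and the other 5 WT libraries were above them. The log2 fold change was -0.84 (edgeR's adjusted p = 0.232), and -1.04 without WT replicate 4 (edgeR's adjusted p = 0.0177). Akr1b10, the neighbour of Akr1b7, was low in both groups, at 0.382 to 1.81 CPM in WT and 0.386 to 1.08 CPM in KO (log2 fold change -0.72, edgeR's adjusted p = 0.340). The potassium channel subunits Kcnab1 and Kcnab3, distant members of the superfamily, were at most 1.85 CPM in any library, with adjusted p of 0.860 and 0.583 in edgeR's test. Akr1c18, Akr1c21 and Kcnab2 had at most 9 counts in any library and were not tested. A count of 0, seen in some of those libraries, allows up to 3 counts.

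**Figure D4:**
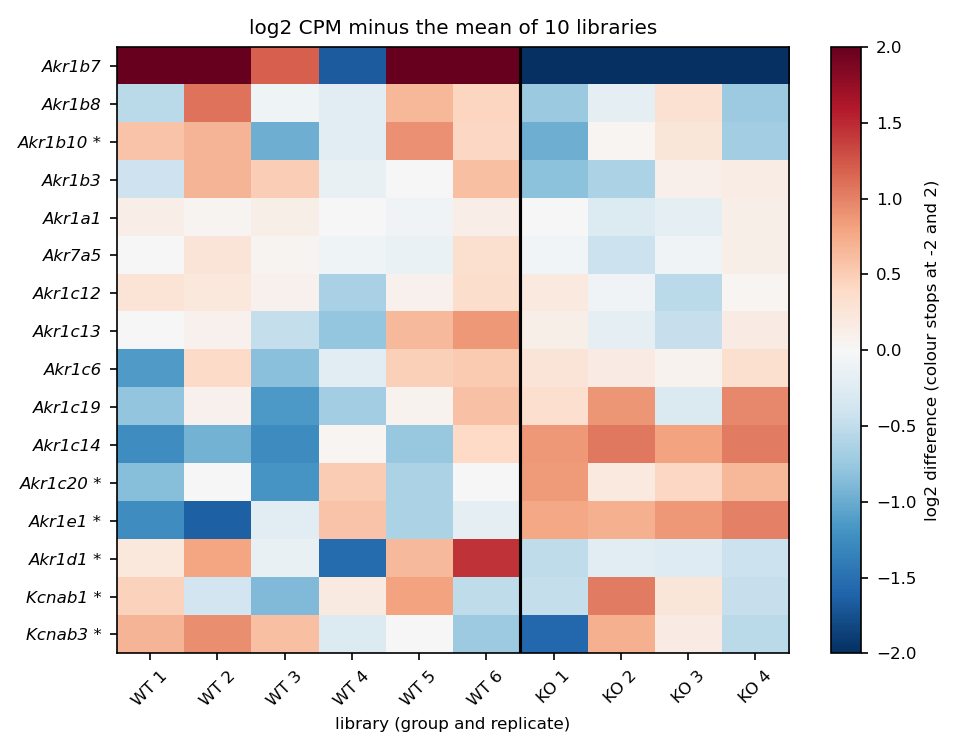
Log2 CPM minus the mean of the 10 libraries for 10 members and 6 other tested family genes (asterisks), by library (red above, blue below the gene's mean, colour ending at -2 and 2). Akr1c14, Akr1c20 and Akr1e1 are red in the 4 KO libraries. Among WT libraries, Akr1c20 and Akr1e1 are highest in replicate 4 and Akr1c14 in replicate 6. Akr1b7 is blue in the KO libraries and in WT replicate 4, and WT replicates 5 and 6 have more Akr1c13 than the other libraries.

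Genes with the pattern most like Akr1b7 were ranked by the root-mean-square difference of centred log2 CPM over the 10 libraries, WT and KO together, among non-members with a mean of at least 1 CPM. Acot5, an acyl-CoA thioesterase, was nearest at 0.53 log2 units. Hcar2, a hydroxycarboxylic acid receptor (1.21), Psat1, an enzyme of serine synthesis (1.22), Runx1, a transcription factor (1.24), and Gml (1.25) followed at larger distances. Acot5 was highest in WT replicate 2 (59.7 CPM) and lowest among WT libraries in replicate 4 (0.340 CPM), as Akr1b7 was. Runx1 had 36.5 and 44.1 CPM in WT replicates 1 and 2, 3.63 to 6.13 CPM in replicates 3, 5 and 6, and 0.681 CPM in replicate 4. WT and KO libraries overlapped for Acot5, Hcar2, Psat1 and Runx1, through WT replicate 4 alone, and did not for Gml. The fitted log2 fold changes of the 5 genes lay between -7.13 and -4.32. With edgeR the adjusted p was 0.0418 to 0.0440 for 4 of them and 0.0596 for Runx1. The measure includes the genotype difference, so these fold changes and p-values are partly set by the choice of genes. The ranking describes these libraries and is not a test.

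The member with the highest level per kilobase, Akr1a1, was nearest to Actr1a, a dynactin subunit (0.052 log2 units), Csnk2a1, a casein kinase subunit (0.060), Ctnnbl1 (0.065), Cox4i1, a subunit of cytochrome c oxidase (0.066), and Elof1 (0.071). Each of these had its 2 lowest values in KO replicates 2 and 3, as Akr1a1 did. Their log2 fold changes lay between -0.19 and -0.12.

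**Figure D5:**
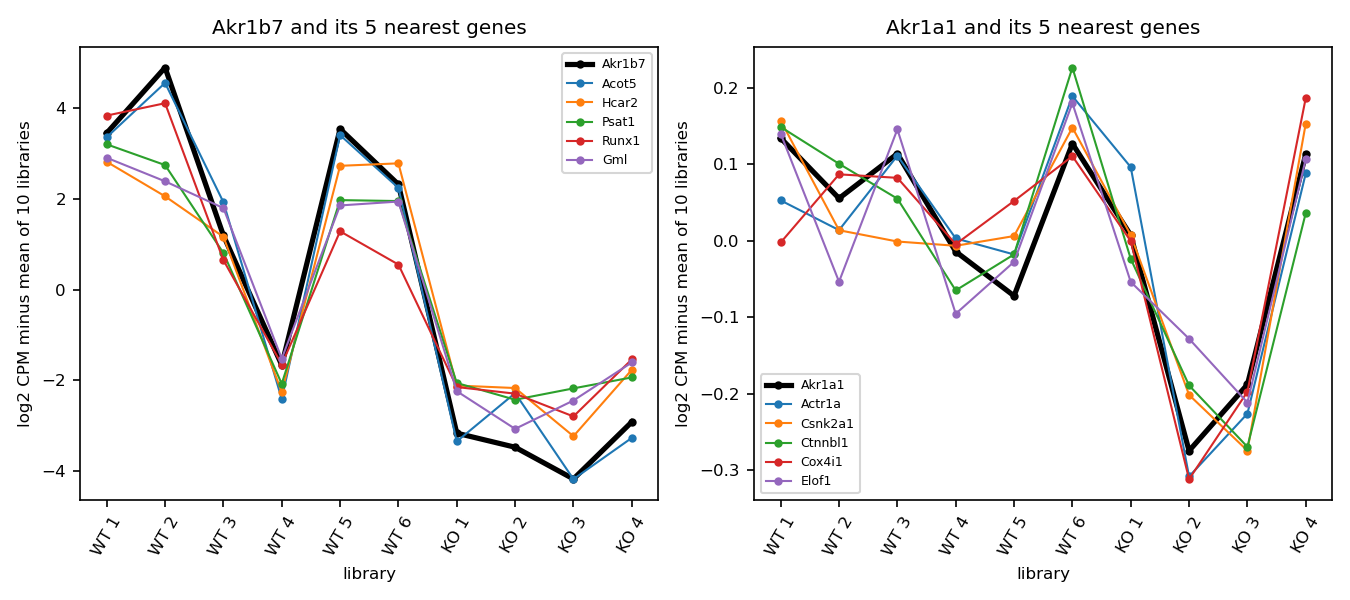
Log2 CPM minus the mean of the 10 libraries for Akr1b7 (left, black) and Akr1a1 (right, black), each with its 5 nearest non-member genes, by library. Akr1b7 and Acot5 (0.53 log2 units apart) fall together in WT replicate 4 and the 4 KO libraries; the vertical range on the right is less than 1 log2 unit.

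Pathways that share regulators or substrates with the family were counted next, on lists chosen with earlier results of these data known. The counts stand beside 1.33% of all genes called with all libraries and 21.4% called without WT replicate 4. The other 9 fits that left out 1 library called only 0 to 55 genes over all genes tested. A count of 0 on a list in those fits is therefore no trait of the list, and nothing particular to a list is read from the counts. Of 22 NRF2 targets, 0 rose and 2 fell, Srxn1, a sulfiredoxin (WT 68.1 to 634 CPM, KO 43.1 to 85.1 CPM, adjusted p = 0.0440 in edgeR's test), and Pgd, an NADPH-forming enzyme (adjusted p = 0.0495 in edgeR's test). The median log2 fold change was -0.75, with 18 of 22 below 0, against -0.02 for all genes. Without WT replicate 4, 10 passed, and 0 passed in each of the other 9 fits that left out 1 library. The list holds genes that also lay low in WT replicate 4: Srxn1 was there at 68.1 CPM, and it lay between 322 and 634 CPM in the other WT libraries.

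Of 14 tested FXR targets and bile acid genes, Cyp7a1, the first enzyme of bile acid synthesis, rose and Slc51b, which encodes part of an export carrier for bile acids, fell (adjusted p = 0.0221 and 0.0440 in edgeR's test). Leaving out WT replicate 4 gave 6 calls on this list, and the other 9 fits without 1 library gave 0 or 1. The median log2 fold change of the list was 0.05. Slc51b, like Akr1b7, had its lowest WT level in replicate 4 (0.408 CPM). The other 5 WT libraries held 28.4 to 48.3 CPM of Slc51b and 15.1 to 197 CPM of Akr1b7. Cyp7a1 was at 2.99 CPM in WT replicate 4 and at most 0.529 CPM in the other WT libraries.

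Other enzymes of carbonyl metabolism were counted in the same way. Of 17 alcohol and aldehyde dehydrogenases 2 rose and 0 fell: the mitochondrial enzymes Aldh5a1, the succinic semialdehyde dehydrogenase (WT 14.6 to 23.5 CPM, KO 29.0 to 33.9 CPM), and Aldh1b1 (WT 4.23 to 7.50 CPM, KO 8.48 to 12.3 CPM), both with adjusted p = 0.0495 in edgeR's test and without overlap. The list's median log2 fold change was 0.25, with 7 calls without WT replicate 4 and 0 in each of the other 9 fits without 1 library. A list of steroid dehydrogenases and reductases, which also holds the cytochrome P450 Cyp17a1, had 17 tested genes, of which 3 rose and 0 fell. These were Hsd3b5 (log2 fold change 2.41), Cyp17a1 (1.47) and Hsd17b7 (0.94), with adjusted p of 0.0440, 0.0468 and 0.0496 in edgeR's test. The median of that list was 0.38, with 6 calls without WT replicate 4, 1 without WT replicate 2 and 0 in each of the other 8 fits without 1 library. Of 10 NADPH supply genes 1 fell, Pgd again (median 0.12), with 2 calls without WT replicate 4 and 0 in each of the other 9 fits without 1 library.

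In edgeR's test no gene passed among 16 short-chain carbonyl reductases (median log2 fold change 0.02), 11 polyol, glyoxalase and glucuronate genes (-0.02) or 15 regulators that include Nfe2l2, Keap1 and Nr1h4 (-0.01). At an unadjusted p under 0.05 there were 6, 4 and 7 (26.0% of all genes). DESeq2 called 5, 3 and 4 (11.9% of all genes), and limma-voom 0, 0 and 2 (2.32%). With sample weights limma-voom called 6, 4 and 7 (19.2%), and edgeR without WT replicate 4 called 6, 4 and 6 (21.4%).

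How far a read can be assigned to 1 member differs across the family. Of the 50-base windows of the coding sequence, 88.9% of those of Akr1b3 also occur in transcripts of other genes, most often Gm6644, Gm6736 and Gm12138, so its counts are uncertain. Akr1c12 and Akr1c13, 96.2% identical in coding sequence, share 37.2% of windows with each other, and reads of one could have been counted for the other or dropped. For Akr1b7, Akr1b8 and Akr1c6 the share was 3.45%, 4.67% and 3.04%, and for Akr1a1, Akr1c14, Akr1c19 and Akr7a5 it was 0%. Exons of Akr1b7 overlap the pseudogene Gm13857 on the opposite strand over 348 bases, and the strand setting of the counting is not given in the sources used here. Gm13857 had 19 counts in WT and 2 in KO. On their own strand, exons of Akr1c14 overlap the pseudogene Gm18857 over 234 bases and those of Akr1c19 overlap Marcksl1-ps4 over 291 bases.

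The balance of Akr1c12 and Akr1c13 differed among WT libraries. The ratio of their counts was 0.980 and 1.00 in WT replicates 5 and 6, between 1.58 and 2.13 in WT replicates 1 to 4, and between 1.34 and 1.57 in KO. WT replicates 5 and 6, with 30.8 and 36.0 CPM of Akr1c13, are also the libraries that stood apart on the second principal component. The part of reads shared between the copies was not tested.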

How the data were processed

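Liver mRNA enriched with oligo(dT) beads was sequenced on an Illumina NovaSeq, per the labels' protocols. The authors deposited raw counts per gene symbol, 1 column per library. STAR, HTSeq and DESeq2 with build mm10 are named, per the submitters' processing notes; for their roles, versions, annotation and strandedness the answer is not given in the sources used here. No column was left out.

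Groups came from the sample titles. edgeR 4.0.16 (R 4.3.3) was run on all 10 libraries with its quasi-likelihood test, TMM scaling, filterByExpr by group, a robust prior and no covariate, over 13688 genes. Calls are genes with a Benjamini-Hochberg adjusted p under 0.05. The SE is the log2 fold change over the square root of F. CPM uses TMM-adjusted library sizes; log2 CPM has a prior count of 2. No 2 libraries of a genotype agreed within counting noise (chi-square per degree of freedom at least 20.8), so none was merged.

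The members and lists were chosen with earlier results of these data known. Named genes were the 10 members, the other family genes, Ifrd1, up to 3 called genes per list with the smallest p, and the 5 genes nearest to Akr1b7 and to the member with the highest level per kilobase. Gene models are GENCODE M21 (GRCm38, the assembly of mm10); promoters are from RefSeq (GRCm38.p6). Coding sequences were aligned with Biopython 1.88. On counts simulated for KO against WT (13429 genes tested), the test recovered 2% of genes changed 1.5-fold, 36% of those changed 2-fold, 84% of those changed 4-fold and 98% of those changed 8-fold, and 3.51% of its calls were unchanged genes. The simulation drew each gene independently, without differences shared by a whole library such as that of WT replicate 4. Its rates therefore need not hold for these libraries. Alternatives were RLE and upper-quartile scaling, 2 other filters, DESeq2 1.42.0, limma-voom (limma 3.58.1), limma-voom with sample weights, a prior that is not robust, a replicate block and leaving out each library. The exon-union length and the overlap count without WT replicate 4 were chosen after seeing the data.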

Additional observations from a re-analysis of the deposited data

Results flagged for a closer look

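Among 74 groups of library values examined, 2 held a library whose gap to its nearest neighbour was large for the range of its group, where chance gives about 1 in 20. Both were WT replicate 4: Akr1c12 at 18.1 CPM, with the other WT libraries at 30.0 to 36.1 CPM, and Cyp7a1 at 2.99 CPM, with the other WT libraries at most 0.529 CPM.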

How the results depend on the processing

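Over the 19 alternatives and 10 members, 189 of 190 log2 fold changes kept their direction; that of Akr1c13 was 0.19 with the replicate block. Among other genes, Kcnab1 (0.16) ran from -0.32 without KO replicate 2 to 0.39 without WT replicate 5. The count of members called (2) was 1 with no filter or limma-voom, 0 with the replicate block and 0 to 2 when 1 library was left out. With no filter or limma-voom, Akr1c14 stayed called and Akr1b7 did not. Akr1b7 lost its call in 11 of the 19 alternatives and Akr1c14 in 9. Calls over all genes (182) were 1618 by DESeq2, 318 by limma-voom (231 higher, 87 lower, against 77 and 105), 2629 with sample weights, 1 with the replicate block and 0 to 2893 when 1 library was left out. Genes without overlap numbered 944, and 3034 without WT replicate 4. Deviations of same-numbered WT and KO libraries gave a mixed picture, with r from -0.029 to 0.18 across genes. Of 4 KO libraries, 2 (replicates 1 and 2) correlated best with their own number. The labels name no pairs, so the numbers were not taken as pairs, but pairing was not excluded. With the replicate block the lists gave 1 (NRF2), 0 (FXR), 0 (dehydrogenases), 0 (steroid) and 0 (NADPH) calls.

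In list calls, other aldo-keto reductases (0) gave 1 by DESeq2, 1 by limma-voom, 2 with sample weights and 0 to 3 with 1 library left out. NRF2 targets (2) gave 1 with upper-quartile scaling, no filter, the 1 CPM filter or limma-voom, 9 by DESeq2, 10 with sample weights and 0 to 10 with 1 library left out. FXR targets (2) gave 1 with no filter, 4 by DESeq2, 5 with sample weights and 0 to 6. Alcohol and aldehyde dehydrogenases (2) gave 0 with no filter, 5 by DESeq2, 8 with sample weights and 0 to 7. Short-chain carbonyl reductases (0) gave 5, 6 and 0 to 6 in the same order of DESeq2, sample weights and left-out libraries. Steroid enzymes (3) gave 5 by DESeq2 and 0 to 6. Polyol genes (0) gave 3, 4 and 0 to 4. NADPH supply (1) gave 0 with upper-quartile scaling, the 1 CPM filter or limma-voom, 2 with sample weights and 0 to 2. Regulators (0) gave 2 with no filter or limma-voom, 4 by DESeq2, 7 with sample weights, 1 with no robust prior and 0 to 6. Among the fits that left out 1 library, each list had its highest count without WT replicate 4. The causes were not tested. By summed exon length Akr1c6 and Akr1a1 changed places in KO, Akr1b7 and Akr7a5 did in WT, and Akr1b3 was last in both groups; the WT mean was 97.0 CPM per kilobase for Akr1a1 (188 by transcript length) and 0.338 for Akr1b3 (2.04). Counts under 100 in a library limit Akr1b3 and Akr1b8 throughout, Akr1b7 in KO and WT replicate 4, and Akr1c19 in WT replicates 1, 3 and 4 and KO replicate 3.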
